A study of Homo sapiens with 9 samples.

Results

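The genes described here are 43 genes of the extracellular matrix: collagen chains, laminin chains, nidogens and basement membrane proteoglycans, matrix glycoproteins, tissue inhibitors of metalloproteinases (TIMPs), and enzymes that modify collagen. They were taken by gene symbol, with every probe annotated to them, out of 20046 genes named on the arrays. They were measured in total RNA of H3122 cells, a lung adenocarcinoma line of human origin with an EML4-ALK fusion (E13;A20), as 3 isogenic lines of 3 arrays each. X376R cells resist X-376, an inhibitor of the ALK kinase. In PF1066R cells resistance was derived against another ALK inhibitor, PF1066 or crizotinib. Parental cells respond to both inhibitors. All 3 lines share the fusion, and each inhibitor is represented by 1 resistant line, so a difference between lines cannot be told apart from a difference particular to the derivation of that line. The sources used here do not give whether inhibitor was present when cells were lysed, whether the resistant lines are clones, or whether a line's arrays came from separate cultures. P-values therefore measure only the spread between these samples, and that spread may be technical.

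The extracellular matrix is the protein scaffold that cells secrete and to which they attach. Collagens are built from chains that wind around each other. Fibrillar collagens form tensile fibres, and collagen IV forms the sheet-like network of basement membranes, the thin layer on which epithelial cells such as those of the lung rest. Laminins, assembled from an alpha, a beta and a gamma chain, form the other network of that layer and bind integrins on the cell surface. Nidogens and heparan sulfate proteoglycans link the networks, while fibronectin, thrombospondins, fibulins and small proteoglycans modify matrix assembly and signalling. Lysyl hydroxylases and lysyl oxidases stabilise collagen, and TIMPs inhibit the metalloproteinases that degrade matrix.

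Of the 43 genes, 41 had at least 1 probe, 70 probes in all, and COL17A1 and LAMA3 were not analysed here. A probe was counted as above background on an array where its signal exceeded that of the brightest external control probe, and it passed where it did so on at least 3 of the 9 arrays. By that rule 45 probes of 35 genes passed, and these 35 are called measured below. Levels are log2 normalized signals, on which the background limit lay between 5.98 and 6.20. An added offset of 50 signal units compresses changes near that limit, so folds of dim genes understate the change. The mean signal of an array ranged from 163 to 180 units in X376R, from 175 to 234 in PF1066R and from 231 to 298 in Parental. Brightness thus moved with the line, and a fit with brightness as a covariate is given where it ended a call. For COL3A1, AGRN and TIMP1 it also ended a call and is only counted among the alternatives. That fit cannot separate brightness from line, since they moved together. Where it ended a call, the log2 change of LUM, COL7A1, FBLN1 and LAMB1 was little altered, while that of TIMP2, COL1A1, LAMB2 and TIMP3 shrank. Correlations between arrays were 0.980 to 0.989 within a line and 0.929 to 0.963 between lines.

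Many matrix genes lay near background in this epithelial cancer line. In X376R, 23 of the 35 measured genes were above background on all 3 arrays, 9 on 1 or 2, and SPARC, POSTN and TIMP3 on none. In PF1066R, 16 were above on all 3 arrays, 17 on 1 or 2, and COL6A1 and LOX on none. In Parental, 17 were above on all 3 arrays, 15 on 1 or 2, and COL3A1, COL18A1 and LUM on none. The 14 genes above background on all 9 arrays were COL1A1, COL16A1, LAMA5, LAMB1, LAMB2, LAMB3, LAMC1, AGRN, FBLN1, ECM1, TIMP1, TIMP2, PLOD1 and PLOD2. Another 9 were above on all 3 arrays of no line: COL6A3, COL12A1, COL18A1, LAMA4, FN1, SPARC, DCN, TIMP3 and LOX. Fibronectin (FN1), the abundant glycoprotein of fibroblast matrix, and decorin (DCN) and SPARC, all typical of stromal cells, are among them.

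No probe passed for 6 further genes. The fibrillar chain COL5A2, the nidogen NID2 and the lysyl oxidase LOXL2 were above background on 0 of 9 arrays. COL4A6 was above on 1 PF1066R array and on none of the others. NID1 was above on 0 X376R arrays, 1 PF1066R array and 1 Parental array, and HSPG2, which encodes perlecan, on 1 X376R array, 0 PF1066R arrays and 1 Parental array.

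**Figure D1:**
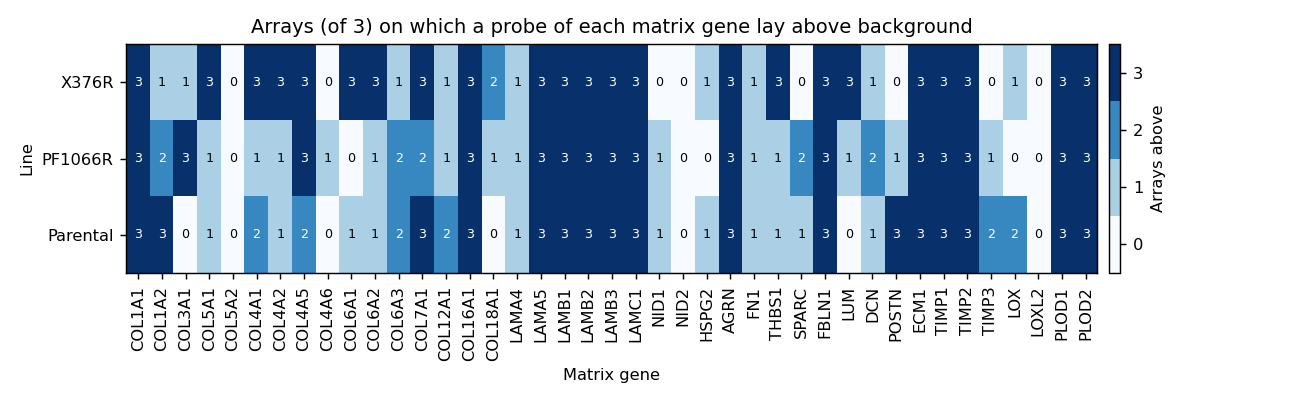
Number of arrays, of 3 per line, on which the probe standing for each of 41 matrix genes was above background (rows, lines; columns, genes; colour and digit, 0 to 3 arrays); for the 6 genes with no passing probe the most often detected probe is shown. X376R has 23 genes at 3 arrays, against 16 in PF1066R and 17 in Parental.

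Genes called higher in X376R included chains of collagen I, IV, V and VII, the laminin chains LAMB1 and LAMB2, thrombospondin, ECM1 and TIMP2. Those called lower there were LAMA5, LAMB3, TIMP1 and TIMP3. Genes called in PF1066R included ECM1, LAMB2 and COL4A5, which were higher, and LAMB3, TIMP2 and LAMA5, which were lower. Against Parental, 14 of the 35 measured genes were higher in X376R, where 13.9% of all genes tested were called higher, and 4 were lower, where 14.2% were called lower. In PF1066R 4 were higher, beside 9.09% of all genes, and 6 were lower, beside 9.37%. Between the resistant lines 13 were higher in X376R, beside 7.92% of all genes, and 0 were lower, beside 8.08%. A call is an adjusted p under 0.05 over all 13769 genes tested, by limma with Benjamini-Hochberg adjustment. The median log2 change of the 35 genes was 0.20 in X376R against Parental, -0.02 in PF1066R against Parental and 0.27 in X376R against PF1066R, beside -0.01, -0.01 and -0.001 over all genes. Calls of at least 2-fold numbered 9 higher and 1 lower in X376R, beside 1.71% and 2.03% of all genes, and 1 higher and 2 lower in PF1066R, beside 0.675% and 0.995%. Between the resistant lines 7 such calls were higher and 0 lower in X376R, beside 0.951% and 1.01%. These counts describe genes that passed the filter on dim probes; a gene that passed chiefly through the 3 arrays of 1 line had to differ. Among the 14 genes above background on all 9 arrays, 7 were higher and 3 lower in X376R than in Parental, where 1696 and 1559 of 8200 genes under that filter were.

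The direction of calls depended on how arrays were scaled. With arrays centred on their medians in place of quantile normalization, the median of all genes moved to -0.19 in X376R against Parental and to -0.12 in PF1066R against Parental, and 387 genes were called higher and 4205 lower in X376R, in place of 1910 and 1950. In PF1066R 215 were then higher and 2227 lower, in place of 1251 and 1290, and between the resistant lines 275 higher and 703 lower, in place of 1091 and 1113. Of the matrix genes 10 were then higher and 5 lower in X376R, 2 higher and 8 lower in PF1066R, and 10 higher and 0 lower in X376R against PF1066R. Relative to the median of all genes, 25 of the 35 lay above it in X376R under that scaling, against 24 with quantile normalization. All 3 comparisons share their arrays in pairs, so counts from them are not independent.

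**Figure D2:**
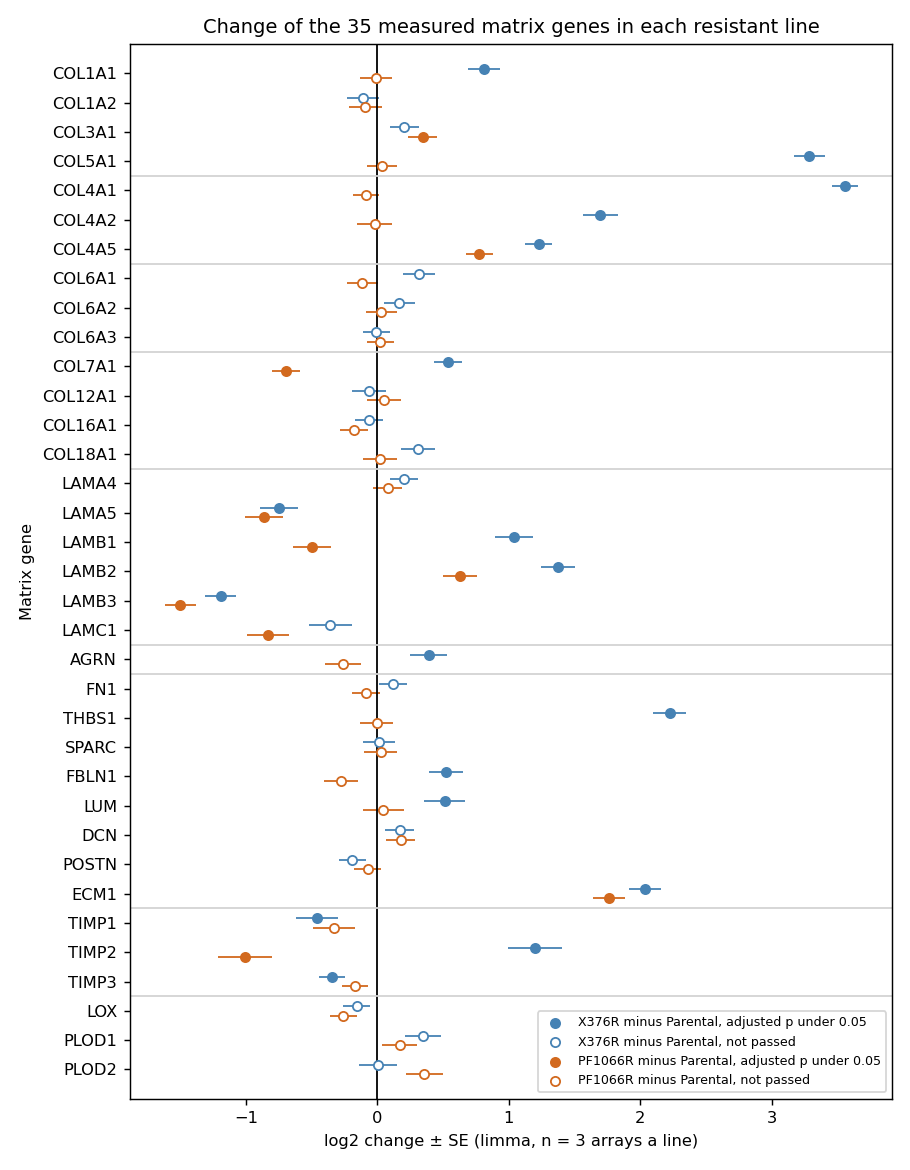
log2 change with its SE (x axis; limma, n = 3 arrays a line) of each of the 35 measured matrix genes (y axis, by role) in X376R against Parental (blue) and PF1066R against Parental (orange); filled points have an adjusted p under 0.05. COL4A1 and COL5A1 stand at 3.56 and 3.29 in X376R, against -0.08 and 0.03 in PF1066R.

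The 3 collagen IV chains measured of the 4 among these genes were higher in X376R, and COL4A6 had no passing probe. COL4A1 and COL4A2 encode the chains found together in nearly every basement membrane, and COL4A5 a chain of more specialised ones. The COL4A1 and COL4A2 genes lie head to head on chromosome 13, with 126 bases between their transcription starts, and COL4A6 and COL4A5 lie head to head on chromosome X, with 379 bases between starts. Stretches between the starts are shown because the members of a pair are transcribed outwards from this shared stretch. They are from RefSeq on build GRCh38.p14, plus strand, the whole chr13:110307158-110307283 for the first pair and the 121 bases at chrX:108439588-108439708 that the windows of both genes share for the second. Capitals mark a CCAAT box (CCAAT, or ATTGG on the other strand) or an Sp1 box (GGGCGG).
COL4A1-COL4A2: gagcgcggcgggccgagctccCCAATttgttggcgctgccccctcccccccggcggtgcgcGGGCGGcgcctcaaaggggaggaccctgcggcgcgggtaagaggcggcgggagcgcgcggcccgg
COL4A6-COL4A5: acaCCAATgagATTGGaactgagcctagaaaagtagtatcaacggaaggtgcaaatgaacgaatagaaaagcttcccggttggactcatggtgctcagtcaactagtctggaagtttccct

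The stretch between COL4A1 and COL4A2 is 80.2% G and C and holds 1 CCAAT box and 1 Sp1 box. The one from the COL4A6 and COL4A5 pair is 44.6% G and C and holds 2 CCAAT boxes and 0 Sp1 boxes. Among 35116 promoter windows of 300 bases, 250 before to 50 after a start, 34.6% hold a CCAAT box and 45.0% an Sp1 box on either strand. The windows of COL4A1, COL4A2, COL4A5 and COL4A6, the last with 2 starts of which the nearer is used above, hold no AP-1 site (TGANTCA), TEAD core (GGAATG) or TATA box (TATAAA), searched on both strands, which 7.7%, 14.0% and 11.5% of all windows hold. In the printed stretches no match overlaps another. A match is a run of letters and not a measured binding site.

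COL4A1 had log2 signals of 9.61, 9.72 and 9.70 on the X376R arrays, 6.06, 6.02 and 6.03 on the PF1066R arrays, and 6.19, 6.09 and 6.08 on the Parental arrays. Its X376R arrays stood far above the rest, while it was above background on 1 of 3 PF1066R and 2 of 3 Parental arrays. The log2 change was 3.56 ± 0.10 (SE, n = 3 each), 11.8-fold, in X376R against Parental (adjusted p = 1.97e-13), and 3.64 ± 0.10, 12.5-fold, against PF1066R (adjusted p = 2.67e-13). PF1066R and Parental differed by -0.08 ± 0.10 (adjusted p = 0.658).

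COL4A2, whose start faces that of COL4A1, had log2 signals of 7.55, 7.92 and 7.77 in X376R, 5.84, 6.36 and 5.89 in PF1066R, and 6.07, 6.07 and 6.01 in Parental. The X376R arrays again lay above all others, and 1 of 3 arrays of each other line was above background. The change was 1.70 ± 0.14, 3.24-fold, in X376R against Parental (adjusted p = 6.16e-08) and 1.72 ± 0.14, 3.29-fold, against PF1066R (adjusted p = 8.28e-08). With control probes used as negative controls and an offset of 16 in place of 50, the changes against Parental became 4.76 for COL4A1 and 2.75 for COL4A2; the 2 choices were changed together.

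COL4A5 had log2 signals of 7.27, 7.20 and 7.32 in X376R, 6.91, 6.69 and 6.83 in PF1066R, and 6.09, 5.94 and 6.08 in Parental. Here both resistant lines lay above Parental without overlap, in which 2 of 3 arrays were above background, and X376R lay above PF1066R. The changes were 1.23 ± 0.10, 2.34-fold, in X376R (adjusted p = 1.37e-07), 0.78 ± 0.10, 1.71-fold, in PF1066R (adjusted p = 5.7e-05), and 0.45 ± 0.10 in X376R against PF1066R (adjusted p = 0.00629). That last change was 0.29 with arrays centred on their medians (adjusted p = 0.245). A second COL4A5 probe was below background on all 9 arrays, as were nearly all readings of COL4A6, whose start faces that of COL4A5.

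Fibrillar collagens gave 2 genes higher in X376R and 1 in PF1066R, of 4 measured. COL5A1, a chain of collagen V, which is incorporated into collagen fibres and limits their width, had log2 signals of 9.13, 9.56 and 9.30 in X376R, 6.13, 6.03 and 6.06 in PF1066R, and 6.03, 6.09 and 6.00 in Parental. Only the X376R arrays stood clear of background, which 1 of 3 arrays of each other line exceeded. The change was 3.29 ± 0.11, 9.77-fold, in X376R against Parental (adjusted p = 2.14e-12), and 3.25 ± 0.11, 9.54-fold, against PF1066R (adjusted p = 3.38e-12). COL5A2, the usual partner chain in collagen V, had no array above background.

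COL1A1, which encodes the major chain of collagen I, lay between 7.50 and 7.93 in X376R, between 6.69 and 6.95 in PF1066R and between 6.83 and 6.91 in Parental. X376R did not overlap either line, and PF1066R overlapped Parental. The change was 0.81 ± 0.12, 1.76-fold, in X376R against Parental (adjusted p = 7.12e-05), 0.83 ± 0.12 against PF1066R (adjusted p = 0.000119), and -0.01 ± 0.12 in PF1066R against Parental (adjusted p = 0.964). With array brightness as a covariate the change in X376R was 0.67 (adjusted p = 0.053). COL1A2, the partner chain in collagen I, was above background on 1 of 3 X376R, 2 of 3 PF1066R and 3 of 3 Parental arrays, and its changes of -0.11 in X376R and -0.09 in PF1066R did not pass the test.

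COL3A1, the chain of collagen III, had log2 signals of 6.26, 6.00 and 6.06 in X376R, 6.11, 6.27 and 6.37 in PF1066R, and 5.97, 5.91 and 5.84 in Parental. It was above background on 1 X376R array, on all 3 PF1066R arrays and on no Parental array. COL3A1 thus passed the filter only through PF1066R and had to differ there, so its call adds no support. PF1066R was at least 1.13-fold higher than Parental (adjusted p = 0.0387), a call lost without PF1066R array 2 or 3 or any 1 of the Parental arrays (log2 changes 0.29 to 0.37, adjusted p 0.0633 to 0.143) and under 4 other alternatives.

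Among the remaining collagens the calls were few. COL7A1, which forms the anchoring fibrils beneath epithelia, had log2 signals of 7.35, 7.46 and 7.37 in X376R, 6.15, 6.01 and 6.30 in PF1066R, and 6.80, 6.90 and 6.86 in Parental. The 3 lines did not overlap, with Parental in the middle, and 2 of 3 PF1066R arrays were above background. COL7A1 was higher by 0.54 ± 0.11 in X376R (adjusted p = 0.000937), fell by 0.70 in PF1066R (adjusted p = 0.000185), and was higher by 1.24 ± 0.11, 2.36-fold, in X376R against PF1066R (adjusted p = 2.36e-07). The change in X376R against Parental was 0.14 with arrays centred on their medians (adjusted p = 0.428) and 0.58 with brightness as a covariate (adjusted p = 0.0622).

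COL6A1, a chain of the beaded filaments of collagen VI, had log2 signals of 6.65, 6.28 and 6.27 in X376R, 5.99, 6.05 and 5.87 in PF1066R, and 6.03, 6.04 and 6.19 in Parental. It was above background on all 3 X376R arrays, on no PF1066R array and on 1 Parental array. COL6A1 thus passed the filter only through X376R and had to differ there, so its call adds no support. X376R was at least 1.23-fold higher than PF1066R (adjusted p = 0.0191), a call lost without X376R array 1 or PF1066R array 1 or 3 (log2 changes 0.31 to 0.43, adjusted p 0.0509 to 0.102) and with arrays centred on their medians. COL6A2 and COL6A3, the partner chains, did not pass in any comparison, with changes of 0.17 and -0.01 in X376R and 0.03 and 0.02 in PF1066R. The same held for COL12A1 and COL16A1, which sit on the surface of fibrils, and for COL18A1, a basement membrane collagen that yields endostatin, with changes between -0.07 and 0.31 in X376R and between -0.18 and 0.05 in PF1066R.

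**Figure D3:**
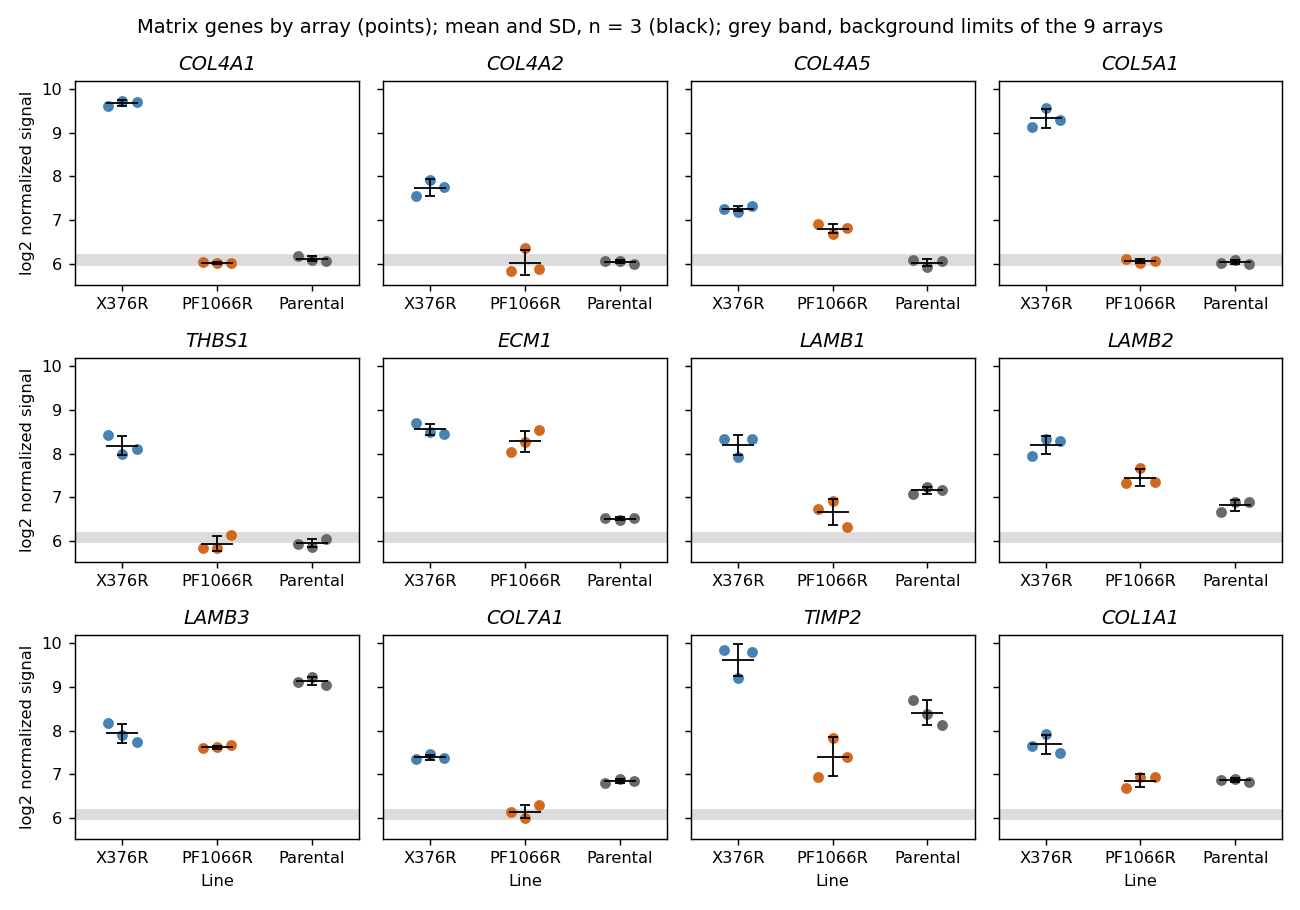
log2 normalized signal (y axis) of 12 matrix genes on each array (points) of X376R, PF1066R and Parental (x axis), with the mean and SD of 3 arrays in black and the range of background limits in grey. COL4A1, COL4A2, COL5A1 and THBS1 have all 3 arrays above the grey band in X376R alone, while ECM1 and COL4A5 are above Parental in both resistant lines and LAMB3 is below it in both.

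Laminin chains moved in both directions. Of 6 measured, LAMB1 and LAMB2 were higher and LAMA5 and LAMB3 lower in X376R, while LAMB2 was higher and LAMA5, LAMB1, LAMB3 and LAMC1 lower in PF1066R. LAMB3, the beta chain of the epithelial laminin that anchors hemidesmosomes, had log2 signals of 8.18, 7.90 and 7.73 in X376R, 7.60, 7.62 and 7.66 in PF1066R, and 9.12, 9.22 and 9.05 in Parental. Both resistant lines lay below Parental without overlap. LAMB3 fell by 1.19 in X376R, which is 2.29-fold lower (SE 0.12, adjusted p = 8.46e-07), and by 1.50 in PF1066R, which is 2.83-fold lower (SE 0.12, adjusted p = 1.52e-07). A second LAMB3 probe passed the filter but lay near the background limit, with means of 6.12 in X376R, 6.19 in PF1066R and 6.28 in Parental. It gave changes of -0.16 in X376R and -0.10 in PF1066R, neither of which passed the test (adjusted p = 0.411 and 0.731). The probes thus disagree in size and in call, and the reason was not tested. Averaged over both probes the changes were -0.68 and -0.80, and both passed.

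LAMA5, an alpha chain found in most adult epithelial basement membranes, lay between 10.24 and 10.80 in X376R, between 10.33 and 10.46 in PF1066R and between 11.10 and 11.56 in Parental. It fell by 0.75 in X376R (SE 0.15, adjusted p = 0.000833) and by 0.86 in PF1066R (SE 0.15, adjusted p = 0.000458), and the resistant lines overlapped (difference 0.12 ± 0.15, adjusted p = 0.683). With arrays centred on their medians it fell by 1.43 in X376R (adjusted p = 0.000178). LAMC1, the gamma chain shared by most laminins, lay between 8.51 and 8.74 in X376R, between 7.77 and 8.37 in PF1066R and between 8.64 and 9.25 in Parental. It fell by 0.83 in PF1066R (SE 0.16, adjusted p = 0.00156), and the change of -0.36 ± 0.16 in X376R did not pass (adjusted p = 0.119). The difference of 0.47 ± 0.16 between X376R and PF1066R did not pass either (adjusted p = 0.0577).

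LAMB1, a beta chain of many basement membranes, had log2 signals of 8.34, 7.93 and 8.33 in X376R, 6.75, 6.92 and 6.33 in PF1066R, and 7.07, 7.24 and 7.18 in Parental. The lines did not overlap, with X376R highest and PF1066R lowest. LAMB1 was higher by 1.04 ± 0.15, 2.05-fold, in X376R (adjusted p = 3.79e-05) and by 1.54 ± 0.15, 2.90-fold, in X376R against PF1066R (adjusted p = 8.06e-07), and fell by 0.50 in PF1066R against Parental (adjusted p = 0.0233). The last of these lost its call without PF1066R array 3 or Parental array 2 or 3 (log2 changes -0.47 to -0.33, adjusted p 0.0733 to 0.131) and with brightness as a covariate (-0.53, adjusted p = 0.134). A second LAMB1 probe gave 0.56 in X376R (adjusted p = 0.00394), 0.74 in X376R against PF1066R (adjusted p = 0.00073) and -0.18 in PF1066R (adjusted p = 0.462).

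LAMB2, the beta chain of muscle, nerve and kidney laminins, had log2 signals of 7.95, 8.34 and 8.29 in X376R, 7.32, 7.67 and 7.35 in PF1066R, and 6.67, 6.88 and 6.90 in Parental. The order X376R, PF1066R, Parental held with no overlap. The changes were 1.37 ± 0.13, 2.59-fold, in X376R (adjusted p = 5.06e-07), 0.63 ± 0.13, 1.54-fold, in PF1066R (adjusted p = 0.00257), and 0.75 ± 0.13 between X376R and PF1066R (adjusted p = 0.0006). In PF1066R the change was 0.37 with arrays centred on their medians (adjusted p = 0.0924) and 0.55 with brightness as a covariate (adjusted p = 0.0699). LAMA4, typical of vessel and muscle basement membranes, was above background on 1 of 3 arrays of each line and did not pass, at 0.20 in X376R and 0.08 in PF1066R.

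Agrin (AGRN), the 1 measured member of the nidogens and basement membrane proteoglycans, lay between 9.08 and 9.52 in X376R, between 8.43 and 8.75 in PF1066R and between 8.66 and 9.10 in Parental. X376R was higher than PF1066R by 0.65 ± 0.14 (adjusted p = 0.00311), or 0.42 with arrays centred on their medians (adjusted p = 0.315). Against Parental the change in X376R was 0.39 ± 0.14 (adjusted p = 0.0451) with overlapping arrays, it turned to -0.24 with arrays centred on their medians, and the call was lost without any 1 of 6 arrays (X376R 1 or 2, PF1066R 1 or 3, Parental 2 or 3; log2 changes 0.26 to 0.42, adjusted p 0.0526 to 0.21) and under 5 further alternatives.

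Of 8 matrix glycoproteins and small proteoglycans, all measured, 4 were higher in X376R (THBS1, FBLN1, LUM and ECM1), 1 was higher in PF1066R (ECM1), and none was lower in either. THBS1, the secreted glycoprotein thrombospondin that binds matrix and activates latent TGF-beta, had log2 signals of 8.42, 8.00 and 8.11 in X376R, 5.84, 5.85 and 6.15 in PF1066R, and 5.93, 5.87 and 6.05 in Parental. It was above background on 1 of 3 arrays in each of PF1066R and Parental and stood clear of it in X376R. The change was 2.22 ± 0.13, 4.67-fold, in X376R against Parental (adjusted p = 1.04e-09) and 2.23 ± 0.13, 4.69-fold, against PF1066R (adjusted p = 1.31e-09).

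ECM1, a secreted glycoprotein of skin and other epithelia whose loss causes lipoid proteinosis, had log2 signals of 8.70, 8.50 and 8.46 in X376R, 8.04, 8.26 and 8.53 in PF1066R, and 6.52, 6.49 and 6.54 in Parental. Both resistant lines lay above Parental and overlapped each other. ECM1 was higher by 2.04 ± 0.12, 4.10-fold, in X376R (adjusted p = 1.95e-09) and by 1.76 ± 0.12, 3.39-fold, in PF1066R (adjusted p = 4.12e-08). The difference of 0.27 ± 0.12 between X376R and PF1066R did not pass (adjusted p = 0.164), but a second ECM1 probe gave 0.74 ± 0.12 there (adjusted p = 0.000384), with 1.34 in X376R and 0.61 in PF1066R against Parental.

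FBLN1, which encodes fibulin, a glycoprotein of elastic fibres and basement membranes, lay between 7.48 and 7.68 in X376R, between 6.49 and 6.93 in PF1066R and between 6.93 and 7.22 in Parental. It was higher by 0.52 ± 0.13 in X376R against Parental (adjusted p = 0.0053) and by 0.80 ± 0.13 against PF1066R (adjusted p = 0.000307), and its change in PF1066R was -0.27 ± 0.13 (adjusted p = 0.171). The change in X376R against Parental was 0.08 with arrays centred on their medians (adjusted p = 0.753) and 0.51 with brightness as a covariate (adjusted p = 0.193). Its other 3 passing probes are annotated to other transcripts of the gene. The first of them was called in all comparisons, at 0.34 in X376R (adjusted p = 0.0304), -0.49 in PF1066R (adjusted p = 0.00459) and 0.84 in X376R against PF1066R (adjusted p = 3.68e-05), so in PF1066R it was called where the probe standing for the gene was not. Another gave 0.60 in X376R against PF1066R and passed (adjusted p = 0.0157), with 0.39 in X376R and -0.21 in PF1066R against Parental, neither past the test (adjusted p = 0.0928 and 0.476). The third, above background on 1 X376R array, 3 PF1066R arrays and 0 Parental arrays, passed in no comparison, at -0.0004 in X376R, 0.28 in PF1066R and -0.29 in X376R against PF1066R (adjusted p = 0.999, 0.0901 and 0.099).

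LUM, the small proteoglycan lumican, had log2 signals of 6.50, 6.20 and 6.90 in X376R, 6.34, 5.98 and 5.87 in PF1066R, and 6.03, 6.12 and 5.91 in Parental. It was above background on all 3 X376R arrays, on 1 PF1066R array and on none of Parental. LUM thus passed the filter only through X376R and had to differ there, so its call adds no support. X376R was at least 1.38-fold higher than Parental (adjusted p = 0.0217), a call lost without X376R array 3 or Parental array 1 or 3 (log2 changes 0.34 to 0.50, adjusted p 0.0523 to 0.11). It was also lost with arrays centred on their medians and with brightness as a covariate (0.53, adjusted p = 0.285).

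POSTN, which encodes periostin, a product of activated fibroblasts, had log2 signals of 5.97, 5.98 and 6.00 in X376R, 6.18, 6.02 and 6.11 in PF1066R, and 6.10, 6.15 and 6.29 in Parental. It was above background on 0, 1 and 3 arrays of these lines, and no comparison passed. FN1, SPARC and DCN did not pass either, with changes of 0.12, 0.01 and 0.17 in X376R and -0.09, 0.02 and 0.18 in PF1066R.

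TIMP2, an inhibitor that also takes part in activating MMP2 at the cell surface, had log2 signals of 9.83, 9.19 and 9.80 in X376R, 6.95, 7.84 and 7.41 in PF1066R, and 8.70, 8.39 and 8.13 in Parental. The lines did not overlap, with X376R highest and PF1066R lowest. TIMP2 was higher by 1.20 ± 0.20, 2.30-fold, in X376R against Parental (adjusted p = 0.000258), fell by 1.01 in PF1066R against Parental, 2.01-fold lower (adjusted p = 0.00214), and was higher by 2.21 ± 0.20, 4.62-fold, in X376R against PF1066R (adjusted p = 5.98e-07). With brightness as a covariate the change in X376R against Parental was 0.50 (adjusted p = 0.337). A second TIMP2 probe gave 0.23 in X376R (adjusted p = 0.263), -0.35 in PF1066R (adjusted p = 0.098) and 0.58 in X376R against PF1066R (adjusted p = 0.00656).

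TIMP1, a broad inhibitor of metalloproteinases, lay between 8.87 and 9.56 in X376R, between 9.23 and 9.41 in PF1066R and between 9.41 and 9.97 in Parental. It fell by 0.46 in X376R (adjusted p = 0.0423) with overlapping arrays, and the call was lost without any 1 of 7 arrays (X376R 1 or 3, each PF1066R array, Parental 1 or 2; log2 changes -0.50 to -0.30, adjusted p 0.0523 to 0.213) and under 4 other alternatives. TIMP3, which binds to the matrix itself, was above background on 0 X376R, 1 PF1066R and 2 Parental arrays and was at least 1.03-fold lower in X376R than in Parental (adjusted p = 0.0153). Without Parental array 1 or 3 its adjusted p was 0.0595 to 0.0662 (log2 changes -0.31 to -0.30), and with brightness as a covariate 0.357 (log2 change -0.30).

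The enzymes gave no call. PLOD1 and PLOD2, the lysyl hydroxylases that prepare collagen for cross-linking, were above background on all 9 arrays, with changes of 0.35 ± 0.13 and 0.004 ± 0.14 in X376R (adjusted p = 0.0638 and 0.99) and 0.17 ± 0.13 and 0.36 ± 0.14 in PF1066R (adjusted p = 0.463 and 0.0985). LOX, a lysyl oxidase that cross-links collagen and elastin, was above background on 1 X376R, 0 PF1066R and 2 Parental arrays and did not pass, at -0.16 in X376R and -0.26 in PF1066R.

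COL1A1, COL4A1, COL4A2, COL5A1, AGRN, THBS1 and FBLN1 passed against Parental in X376R and not in PF1066R. Each was also called higher in X376R than in PF1066R. For FBLN1 1 other probe was called lower in PF1066R. COL4A2, COL5A1 and THBS1 were above background on 1 array of each other line and passed the filter only through X376R. They had to differ there, so the second call adds no support. COL1A1, AGRN and FBLN1 lost the call against Parental under at least 1 alternative, and AGRN also the call between the resistant lines. Both comparisons with Parental share the Parental arrays.

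Some calls held under an alternative while their fold, taken off the log scale, moved by over 1.5 times. The values below are log2 changes. With control probes as negative controls and the offset of 16, the log2 changes in X376R against Parental were 4.57 for COL5A1, 3.47 for THBS1, 2.72 for ECM1 and 2.15 for COL4A5. In PF1066R against Parental they were 2.41 for ECM1, 1.49 for COL4A5 and -1.30 for COL7A1. Between X376R and PF1066R they were 4.96 for COL4A1, 4.49 for COL5A1, 3.45 for THBS1, 2.77 for COL4A2 and 2.07 for COL7A1. With arrays centred on their medians TIMP1 fell by 1.10 and TIMP2 was higher by 0.58 in X376R against Parental, and averaged over its probes TIMP2 was higher by 1.39 in X376R than in PF1066R.

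**Figure D4:**
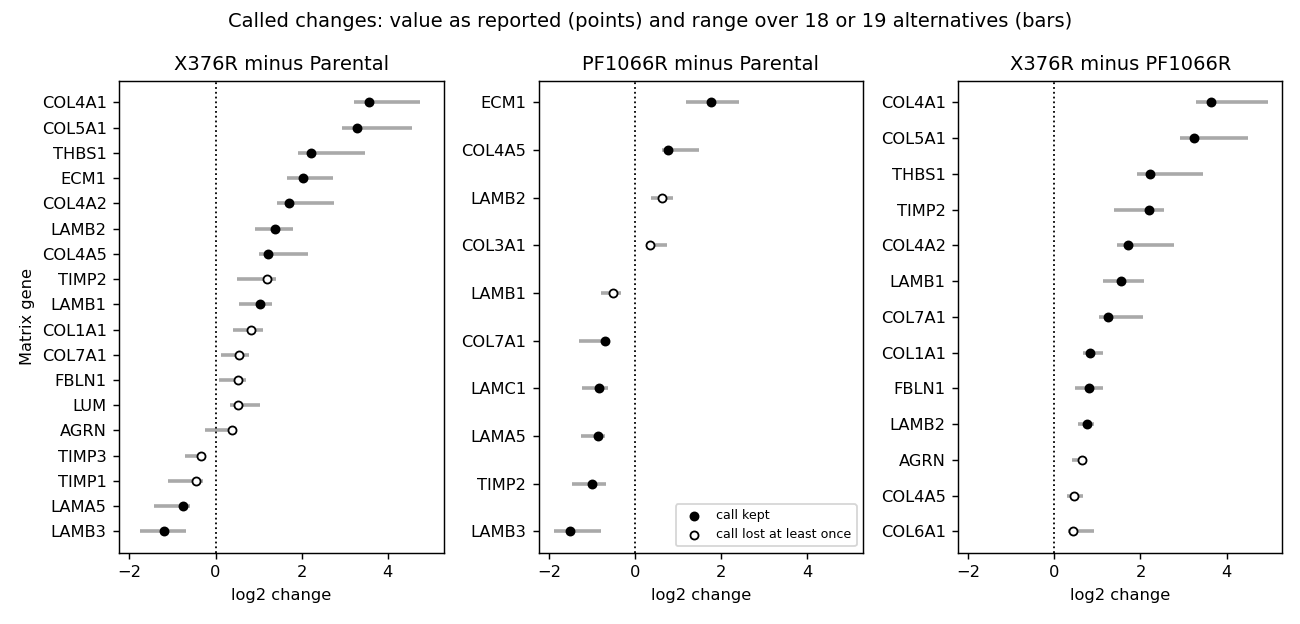
log2 change (x axis) as reported (points) of each matrix gene (y axis) called in X376R against Parental, PF1066R against Parental and X376R against PF1066R, with the range over 18 or 19 other ways of processing (grey bars); open points lost the call at least once. AGRN in X376R against Parental is the bar that crosses 0, from -0.24 to 0.50.

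Matrix genes outside the 43 were looked at in 6 lists chosen for the same biology. Of 28 further glycoproteins and proteoglycans measured, 7 were higher and 0 lower in X376R against Parental, beside 13.9% and 14.2% of all genes tested. In PF1066R 0 were higher and 5 lower, beside 9.09% and 9.37%. Between the resistant lines 10 were higher and 0 lower in X376R, beside 7.92% and 8.08%. The same shares over all genes stand beside the counts of the other lists below, and no list was tested as a set. CCN1, a secreted matricellular protein, changed by 2.71 ± 0.12 in X376R (adjusted p = 3.07e-11) and fell by 0.36 in PF1066R (adjusted p = 0.0402). TGFBI, which links collagen to integrins, changed by 2.21 ± 0.13 in X376R (adjusted p = 1.76e-09) and fell by 1.11 in PF1066R (adjusted p = 1.73e-05). CCN2, a matricellular relative of CCN1, changed by 1.11 in X376R and -1.58 in PF1066R, both past the test. IGFBP7 changed by 1.88 in X376R (adjusted p = 1.13e-09) and by 0.02 in PF1066R (adjusted p = 0.952). LTBP3 and TNC, a TGF-beta binding protein and tenascin, fell by 0.71 and 0.54 in PF1066R and did not pass in X376R.

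Of 18 other collagen chains measured, 2 were higher in X376R (COL4A4 at 0.42 and COL28A1 at 0.33), 1 was lower (COL9A2 at -0.71), and none passed in PF1066R. COL4A4, another collagen IV chain, was above background on all 3 X376R arrays and on 1 array of each other line, and so passed the filter only through X376R. COL4A3, a further one, did not pass at 0.11 in X376R (adjusted p = 0.506). Of 7 other laminin and basement membrane genes, 2 were higher and 0 lower in X376R and 2 higher and 2 lower in PF1066R. FRAS1, a protein of the epithelial basement membrane, was higher by 1.18 in X376R and 0.40 in PF1066R. EFNA1, a membrane-bound ephrin and not a matrix protein, is counted in this list and was higher by 1.73 in X376R and 1.09 in PF1066R. FRAS1 and EFNA1 were the only genes of the list called higher in either line.

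Among 19 further enzymes of collagen folding, processing and cross-linking, 5 were higher and 4 lower in X376R, and 1 was higher and 5 lower in PF1066R. P4HA2, a catalytic chain of the prolyl hydroxylase that stabilises collagen, was higher by 1.53 ± 0.12 in X376R (adjusted p = 4.28e-08) and by 0.60 ± 0.12 in PF1066R (adjusted p = 0.00175). Its relative P4HA1 fell by 0.99 in X376R (adjusted p = 5.17e-05). SERPINH1, the collagen chaperone of the endoplasmic reticulum, was higher by 0.84 ± 0.11 in X376R (adjusted p = 1.43e-05), with -0.29 ± 0.11 in PF1066R (adjusted p = 0.0739). TGM2, a transglutaminase that cross-links matrix proteins, fell by 1.72 in X376R and 0.70 in PF1066R.

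Of 21 matrix-degrading proteases and related genes measured, 4 were higher and 5 lower in X376R and 3 higher and 2 lower in PF1066R. CTSL, a lysosomal cysteine protease, was higher by 1.24 in X376R, and MMP9, a gelatinase, by 1.08. MMP7, matrilysin, fell by 1.60 in X376R (adjusted p = 3.94e-08), with 0.35 in PF1066R (adjusted p = 0.0568). PLAT, tissue plasminogen activator, was higher by 1.23 in PF1066R (adjusted p = 7.99e-06), with -0.31 in X376R (adjusted p = 0.106).

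Of 17 receptors for collagen, laminin and related ligands, 3 were higher and 4 lower in X376R, and 0 higher and 6 lower in PF1066R. ITGB5, an integrin beta chain, fell by 1.70 in X376R and 2.07 in PF1066R, and ITGA2, the alpha chain of a collagen receptor, by 1.16 and 1.17. CD44, the hyaluronan receptor, was higher by 1.19 in X376R (adjusted p = 8.99e-07) and fell by 0.71 in PF1066R (adjusted p = 0.00044). ITGA3, the alpha chain of a laminin receptor, showed the same split, at 0.77 and -0.82, both past the test. Both genes were thus higher in X376R than in PF1066R, by 1.90 and 1.59.

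**Figure D5:**
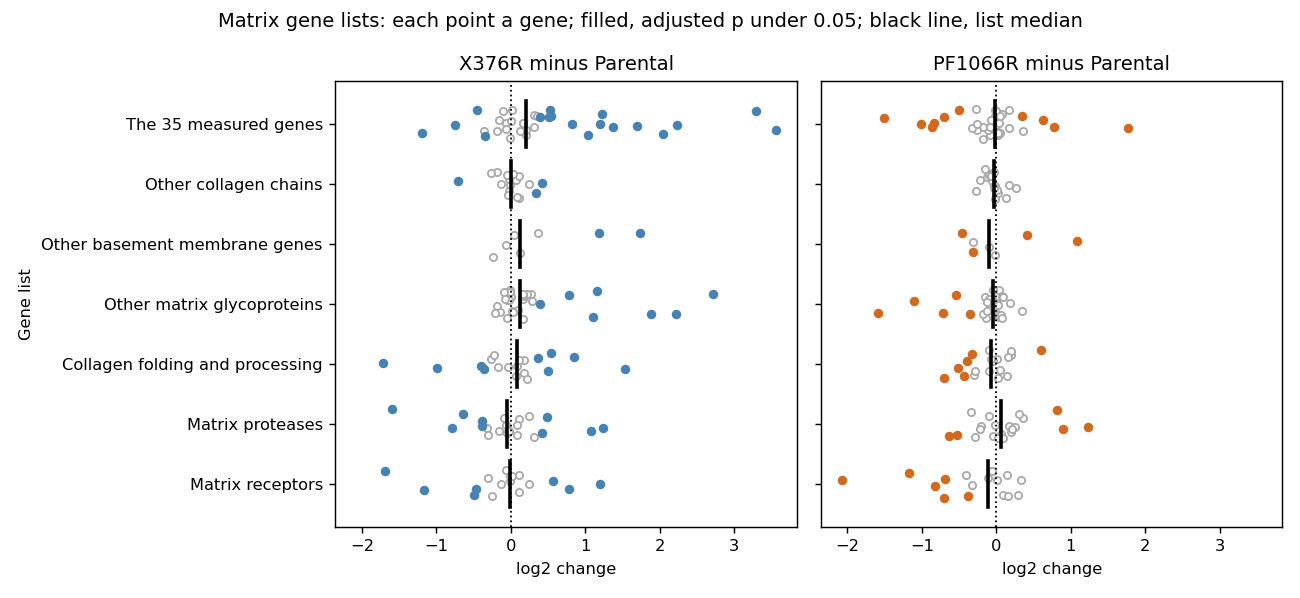
log2 change (x axis) of each measured gene in the matrix genes described here and in 6 further matrix lists (y axis), in X376R against Parental (left) and PF1066R against Parental (right); filled points have an adjusted p under 0.05 and black lines are list medians. Among other glycoproteins the filled points lie right of 0 in X376R, up to 2.71, and left of 0 in PF1066R, down to -1.58.

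Several of these genes are typical of fibroblasts, so markers of other cell types were read from the same arrays. Of 12 fibroblast and pericyte markers outside the 43 genes, 3 passed the filter (FAP, TCF21 and PRRX1) and none was called in any comparison. PRRX1 was above background on 3 X376R, 1 PF1066R and 2 Parental arrays, and FAP and TCF21 on all 3 arrays of no line. THY1, MEOX2, CSPG4 and PDGFRB were above background on 0 of 9 arrays. The summed normalized signal of the passing markers ranged from 205 to 219 units in X376R, from 192 to 218 in PF1066R and from 209 to 220 in Parental. These markers lay about the background limit, so their sums hold mostly background and could show little difference. All 12 epithelial markers were measured, with 10 above background on all 3 arrays in X376R, 11 in PF1066R and 10 in Parental. In X376R 3 were higher and 3 lower, beside 13.9% and 14.2% of all genes tested. In PF1066R 3 were higher and 1 lower, beside 9.09% and 9.37%. In X376R the calls were NKX2-1 at 1.19, KRT7 at 1.08, MUC1 at 0.67, CDH1 (E-cadherin) at -0.87, KRT18 at -0.52 and ELF3 at -0.43. In PF1066R they were MUC1 at 1.77, NKX2-1 at 0.71, NAPSA at 0.47 and CDH1 at -0.41. Of 8 endothelial markers 4 were measured and 1 was called, CDH5, higher by 2.21 in X376R and 1.38 in PF1066R, while KDR, CLDN5 and EMCN were above background on 0 of 9 arrays. Of 8 blood cell markers 5 were measured and none was called against Parental. These are whole-culture RNA levels, in which fewer cells expressing a gene and less RNA per cell cannot be told apart.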

How the data were processed

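Biotinylated RNA copies were hybridised to Illumina bead arrays, 9 in all, 3 per line. Signals were deposited as linear intensity values, 1 per probe on each array, whose medians differ between arrays and so were not normalized. The sources used here do not give the scanner software or the summarization of beads. The authors' own log2 table, quantile-normalized to judge by its distribution, served only as an alternative, because replicate 1 of each line has a slightly different distribution there. The submitters' processing notes list R 2.15.

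Signals were corrected with limma 3.58.1 in R 4.3.3 (normexp, offset 50), quantile-normalized and put on the log2 scale. The tables give no detection p and do not name control probes: 92 probes of 1 identifier range were treated as external controls, going by what is known of this platform, and the highest set the background limit. Of 47322 probes with a value 30113 carried 1 gene symbol, 8 several and 17202 none. Each gene was represented by its passing probe of highest mean level, 13769 genes in all. The fit had 1 mean per line, all 9 arrays, no replicate block, and 3 contrasts, with 6 residual and 10.7 prior degrees of freedom. Arrays per line limit the precision: the median SE of a log2 change was 0.118. Adjusted p under 0.05 was the threshold. A bound ("at least") sets the bright line's mean against, per dim array, the probe's own value or the lowest value above background, whichever is higher.

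Every gene of the list is named; array values are given for genes called with a log2 change of at least 1 or lying below background in 1 line and above it in another, and up to 4 genes per further list and comparison by size of change. The genes, lists and rules were chosen with earlier results of these data known. Collagen protein sequences were not used here. Alternatives changed scaling, background correction, the filter on dim probes, the probe standing for a gene, brightness as a covariate, a replicate block, the authors' log2 table, and each array left out.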

Additional observations from a re-analysis of the deposited data

Results flagged for a closer look

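The change from Parental differed between the resistant lines, by the limma contrast X376R minus PF1066R with an adjusted p under 0.05, for 13 genes, all with the higher change in X376R. For 5 of them the change in PF1066R was near 0: the difference was 3.64 for COL4A1, 3.25 for COL5A1, 2.23 for THBS1, 1.72 for COL4A2 and 0.83 for COL1A1 on the log2 scale. All of these but COL1A1 lay about the background limit in both PF1066R and Parental, so a change between those lines could be missed. The lines moved in opposite directions from Parental, each past the test as reported, in TIMP2, LAMB1 and COL7A1, with differences of 2.21, 1.54 and 1.24. For each gene 1 of the calls against Parental was lost under at least 1 alternative: X376R for TIMP2 and COL7A1, PF1066R for LAMB1. A second TIMP2 probe passed in neither line against Parental, and a second LAMB1 probe did not pass in PF1066R. In LAMB2 and COL4A5 both lines were above Parental and X376R further, by 0.75 and 0.45. FBLN1 differed by 0.80, AGRN by 0.65 and COL6A1 by 0.43, with changes from Parental of 0.52, 0.39 and 0.32 in X376R and -0.27, -0.26 and -0.12 in PF1066R. COL5A1, THBS1, COL4A2 and COL6A1 passed the filter only through X376R and had to differ there.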

How the results depend on the processing

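Of 41 calls on matrix genes, 27 were kept under every alternative that gave a value, 14 were lost at least once, and 1 reversed: AGRN in X376R against Parental, -0.24 with arrays centred on their medians. Genes higher in PF1066R than in Parental numbered 2 in place of 4 with arrays centred on their medians, with brightness as a covariate, and with probes above background on all 9 arrays. Genes higher in X376R than in Parental numbered 8 in place of 14 with brightness as a covariate and 7 with probes above background on all 9 arrays, a filter that leaves 14 of these genes among 8218. With that filter 7 of the 14 were higher in X376R than in PF1066R, against 13 of 35 as reported. Counts under that filter are out of 14 genes and not 35, so a lower count is not a smaller share. Among the 8200 genes whose standing probe met it, 1696 were called higher in X376R and 1145 in PF1066R than in Parental. Between the resistant lines 899 of these were higher in X376R. Genes lower in X376R than in Parental numbered 2 in place of 4 with brightness as a covariate, and 2 to 4 with 1 array left out, 2 without Parental array 1. Brightness as a covariate also cut the calls over all genes to 705 higher and 691 lower in X376R and to 629 and 625 in PF1066R; array medians gave 387 and 4205, 215 and 2227, and 275 and 703 between the resistant lines. The cause was not tested. With the replicate number as a replicate block, 15 genes were higher and 4 lower in X376R, 5 and 6 in PF1066R, and 15 and 0 between the resistant lines; deviations of same-numbered arrays correlated at -0.048 to 0.221, against -0.231 to 0.141 for arrays of different number. The 3 pairs of arrays numbered 2 lay above every pair of different number, and those numbered 1 did not. Pairs numbered 3 lay at 0.029, 0.11 and 0.146, the last of them, X376R with Parental, also above. The labels do not say what the numbers mark, so they were not taken as pairs. Whether arrays of the same number shared a batch was not tested. Low signal over background limits what can be said of the 21 measured genes not above it on all 9 arrays.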
